A study of Homo sapiens with 6 samples.

Results

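The EGF-family ligands and ERBB receptors are described here as they were measured in mitotic human fibroblasts with and without induction of oncogenic Ras. They are 10 genes, taken by symbol from the 63009 genes read, and all 10 were found: the 7 ligand genes EREG, AREG, HBEGF, TGFA, EPGN, BTC and NRG1 and the 3 receptor genes EGFR, ERBB2 and ERBB3. RNA-seq of polyadenylated RNA was carried out on 6 libraries of ERRAS cells, which are early passage IMR90 lung fibroblasts that stably carry a tamoxifen-inducible RasV12 (ER:RAS). The study asked what goes wrong in mitosis before Ras-expressing cells become senescent and multinucleated. Control mitotic cells (3 libraries) were left uninduced, and Ras-induced mitotic cells (3 libraries) had RasV12 switched on for 4 days, with 100 nM tamoxifen by the sample labels. Both groups carried the construct, were kept in G418 and were arrested with 1 µM dimethylenastron (DME), an inhibitor of the mitotic kinesin Eg5, after which the detached mitotic cells were collected. The groups therefore differed in exposure to tamoxifen as well as in Ras activity, and effects of the compound itself and of Ras cannot be told apart. No unsynchronized cells were analysed here, so the values describe arrested cells only.

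EGF-family ligands are made as membrane-anchored precursors that metalloproteases of the ADAM family can cut free. The released ligands bind ERBB receptors on the same or neighbouring cells, the receptors pair, and the paired kinases signal through Ras to the kinases MEK and ERK and through PI3-kinase to AKT. Several ligand genes, EREG, AREG and HBEGF among them, are themselves known to be switched on by Ras and ERK signaling, and ligands of this family are made by many senescent fibroblasts.

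Levels are given in FPKM (fragments counted on a gene, divided by its transcript length and by the mapped total of its library), which the authors computed and which allows genes to be compared per length. Relative to control library 1, the sequencing depth read from the steps between low FPKM values was 0.940 and 1.16 in the other control libraries and 1.13, 0.841 and 0.966 in the Ras-induced libraries. The test took in the 13993 genes whose mean over the 6 libraries reached 1 FPKM, and a gene with an adjusted p at or under 0.05 (limma with Benjamini-Hochberg adjustment) is called altered. All log2 fold changes are of FPKM + 1, so those of genes with low FPKM are understated. Of the 10 family genes 6 were tested, and 4 of these were altered, with 3 rises and 1 fall after induction of Ras. For comparison, 16.7% of the tested genes as a whole were altered (11% rose and 5.67% fell). The balance of rises and falls over all tested genes turned with the scaling, from 1543 and 793 to 1044 and 1109 after quantile normalization and 921 and 1101 after upper-quartile scaling, while the family kept its 3 rises and 1 fall. Without control library 2 only 2 of the 6 family genes were altered, EREG and AREG, among 876 of all tested genes. In 4 of the 6 tested family genes the groups did not overlap, as in 39.9% of all tested genes. The other 4 family genes stayed under the filter, and a gene can pass it through the group in which it is high.

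**Figure D1:**
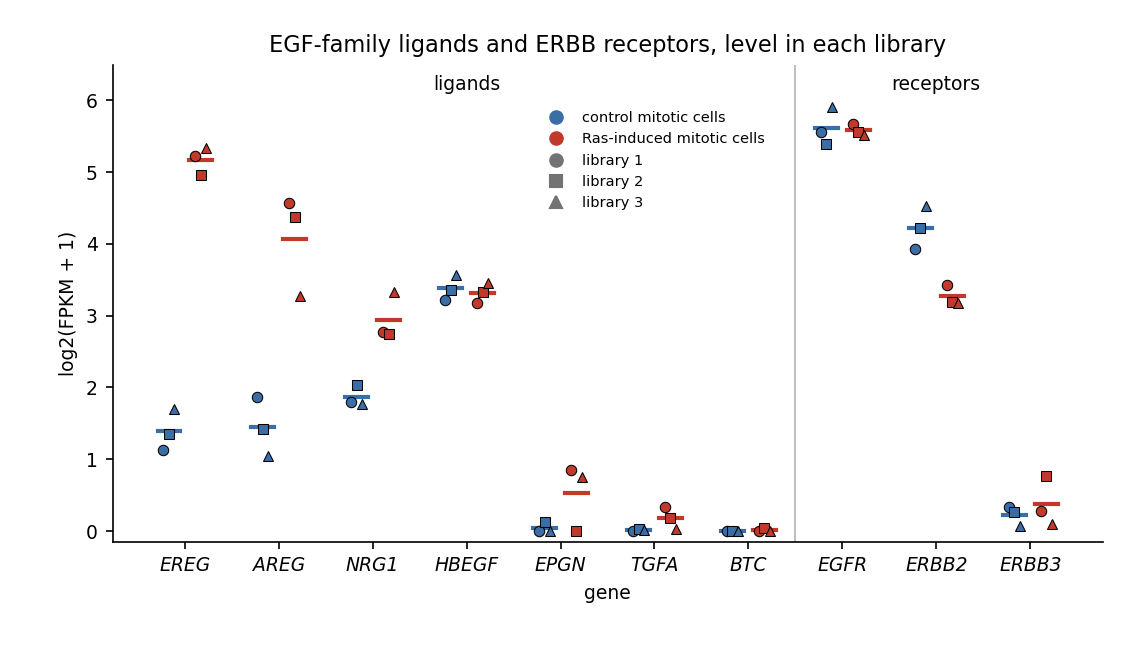
Level of each of the 10 genes in each library, as log2(FPKM + 1), with control mitotic cells in blue and Ras-induced mitotic cells in red. Points are single libraries and bars are the means of 3 libraries. EREG, AREG and NRG1 were higher and ERBB2 was lower in every Ras-induced library than in any control library, while HBEGF and EGFR overlapped.

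The largest difference among the ligands was that of EREG (epiregulin, ENSG00000124882, chromosome 4 of GRCh37 from 75230862 to 75254466), a ligand of EGFR and ERBB4. EREG measured 1.18, 1.56 and 2.24 FPKM in the control libraries and 36.3, 30.2 and 39.6 FPKM in the Ras-induced libraries. All 3 Ras-induced libraries were far above all 3 control libraries, and the spread within each group was small beside the distance between them. The ratio of the group means was 21.3. Its log2 fold change was 3.78 (standard error, SE, 0.17, 95% interval 3.36 to 4.20, n = 3 in each group, adjusted p = 0.000236, limma with Benjamini-Hochberg adjustment), which placed EREG at rank 22 of the 13993 tested genes ordered from the largest rise. In bulk RNA, a higher share of cells that express a gene and more RNA per cell cannot be told apart, and likewise for fewer cells and less RNA.

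AREG (amphiregulin, ENSG00000109321, chromosome 4 from 75310853 to 75320722), which binds EGFR, measured 2.66, 1.68 and 1.06 FPKM in the control libraries and 22.7, 19.7 and 8.67 FPKM in the Ras-induced libraries. The groups did not overlap, although Ras-induced library 3 was well under the other 2. The ratio of means was 9.46, and the log2 fold change was 2.63 (SE 0.37, adjusted p = 0.0079, limma with Benjamini-Hochberg adjustment, rank 64 by size of rise). The annotation used by the authors also lists a near copy, AREGB (ENSG00000205595, from 75480629 to 75490486), and the longest transcripts of the pair differ at 1 of 1234 aligned bases (99.9% identity). Reads of AREG and AREGB can therefore hardly be assigned to one or the other. AREGB measured 2.15, 1.75 and 0.742 FPKM in control and 16.9, 14.4 and 6.62 FPKM in Ras-induced libraries, with library 3 the lowest of each group as for AREG. Its log2 fold change was 2.37 (adjusted p = 0.0101, limma with Benjamini-Hochberg adjustment), and without control library 2 its adjusted p was 0.051. The AREG to AREGB ratio lay between 0.958 and 1.43 in all 6 libraries. Summed into a single entry, a step chosen after seeing the data, the pair measured 4.82, 3.42 and 1.80 FPKM in control and 39.6, 34.0 and 15.3 FPKM in Ras-induced libraries. The summed log2 fold change was 2.78 (SE 0.40, adjusted p = 0.00841, limma with Benjamini-Hochberg adjustment).

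EREG and AREG did not follow each other within the groups. The EREG to AREG ratio was 0.443, 0.933 and 2.11 in control and 1.60, 1.54 and 4.56 in Ras-induced libraries. These ratios overlapped between the groups, and in each group library 3 had the highest ratio, with the highest EREG and the lowest AREG. Over the summed AREG and AREGB the ratio of EREG was 0.245, 0.456 and 1.24 in control and 0.916, 0.887 and 2.59 in Ras-induced libraries, again with overlap and with library 3 the highest in each group.

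EREG and AREG belong to a cluster of 4 family genes on chromosome 4, with EPGN and BTC, that spans 545.5 kb of GRCh37. The stretch before the start of a gene holds its core promoter, and the 250 bases before the RefSeq start (GRCh38.p14) were searched on both strands for the TATA box core TATAAA, the cAMP response element TGACGTCA, the AP-1 motif TGANTCA, the ETS motif CCGGAAGT and the GC box GGGCGG. NRG1 was not looked up in the promoter table, which matched 8 of the other genes by symbol, all but ERBB3. The windows of EREG (chr4:74364895-74365144, plus strand), AREG (chr4:74444886-74445135, plus strand) and EPGN (chr4:74308220-74308469, plus strand) are shown because these neighbours hold TATAAA at nearly the same distance from the start. Capitals mark TATAAA and, in AREG, TGACGTCA.
EREG: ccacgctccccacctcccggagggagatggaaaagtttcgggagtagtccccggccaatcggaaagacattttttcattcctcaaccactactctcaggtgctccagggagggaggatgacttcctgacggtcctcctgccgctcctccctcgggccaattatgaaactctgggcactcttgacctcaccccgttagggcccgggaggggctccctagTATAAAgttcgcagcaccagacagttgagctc
AREG: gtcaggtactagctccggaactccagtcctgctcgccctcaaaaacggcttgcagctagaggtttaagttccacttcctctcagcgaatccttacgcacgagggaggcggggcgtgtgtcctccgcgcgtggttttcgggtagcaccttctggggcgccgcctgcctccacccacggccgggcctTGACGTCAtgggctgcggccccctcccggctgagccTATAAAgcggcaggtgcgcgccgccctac
EPGN: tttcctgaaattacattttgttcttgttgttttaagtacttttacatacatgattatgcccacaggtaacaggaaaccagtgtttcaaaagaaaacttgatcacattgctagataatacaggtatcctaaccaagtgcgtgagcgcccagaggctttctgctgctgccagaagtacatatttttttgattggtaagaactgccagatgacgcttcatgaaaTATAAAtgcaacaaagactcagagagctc
TATAAA began at position -32 in EREG and at -29 in AREG and EPGN, counted from the start, and 10.7% of 35116 promoter windows of this length hold it. TGACGTCA, found at -65 in AREG, occurs in 1.65% of the windows. BTC, the cluster's remaining gene, had neither sequence in its window, nor did HBEGF, ERBB2 or TGFA. EGFR and TGFA have 2 listed starts each. TATAAA occurred 2 times before the downstream start of EGFR (chr7:55109589-55109838, plus strand) and not before the upstream start. TGANTCA, held by 6.57% of the windows, occurred 2 times before that downstream EGFR start and once in the window of ERBB2. CCGGAAGT, held by 3.42%, occurred 2 times in that of ERBB2. GGGCGG, held by 42.6%, occurred 5 times in the window of HBEGF, where some matches overlap each other, once in that of AREG, 2 times before the upstream start of EGFR and 3 times before that of TGFA. A match of letters does not show that a factor binds there, and no binding was measured.

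EPGN and BTC, by contrast with their neighbours, were barely measured. EPGN (epigen, an EGFR ligand) was listed at 0, 0.0959 and 0 FPKM in control and at 0.794, 0 and 0.678 FPKM in Ras-induced libraries. It was thus above the controls in 2 Ras-induced libraries and listed at 0 in the other, and the groups overlapped. BTC (betacellulin, a ligand of EGFR and ERBB4) was listed at 0 in 5 libraries and at 0.0277 FPKM in Ras-induced library 2. A listed 0 can be a failed estimate in this table, since SHC1, an adaptor used by most cells, was listed at 0 in control library 2 and at 109 to 148 FPKM in the other 5.

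The genes that lie between and around the cluster were taken as a list of 14, which includes AREGB, and 7 of them were tested. Of these, 3 were altered, all higher (42.9%, against 16.7% of all tested genes), and the median log2 fold change was 0.34, against 0.10 for all tested genes. Besides AREGB they were IL8 and CXCL1, which encode chemokines that attract neutrophils. IL8, whose start lies at -624.6 kb from that of EREG, measured 17.7, 8.90 and 12.2 FPKM in control and 38.0, 26.7 and 32.6 FPKM in Ras-induced libraries, with no overlap. Its log2 fold change was 1.30 (adjusted p = 0.0172, limma with Benjamini-Hochberg adjustment). CXCL1, at 0.351 to 0.741 FPKM in control and 1.47 to 3.91 FPKM in Ras-induced libraries, had a log2 fold change of 1.23 (adjusted p = 0.0327, limma with Benjamini-Hochberg adjustment). The call of IL8 was lost without control library 2 (0.0572) or 3 (0.0599), without Ras-induced library 1 (0.0754) or 3 (0.0749), and with no filter. CXCL1 had passed the filter through the Ras-induced group. Its call was lost with no filter and with any library but Ras-induced library 2 left out, at an adjusted p of up to 0.1, and its log2 fold change was 2.13 with a pseudocount of 0.1. Without control library 2 none of the 7 was altered, and without control library 3 or Ras-induced library 1 or 3 only 1 was. MTHFD2L, the gene next to EPGN, measured 3.63 to 5.08 FPKM in control and 4.12 to 7.16 FPKM in Ras-induced libraries (adjusted p = 0.319, limma with Benjamini-Hochberg adjustment), which overlapped. CXCL3, at 0.0423 to 0.140 FPKM in control and 0.286 to 2.40 FPKM in Ras-induced libraries, and CXCL2, listed at 0 in control and at 0.176 to 0.243 FPKM in Ras-induced libraries, did not overlap and were under the filter. CXCL5, the other tested chemokine gene, measured 0.581 to 1.91 FPKM in control and 0.954 to 3.41 FPKM in Ras-induced libraries. Its groups overlapped (adjusted p = 0.588, limma with Benjamini-Hochberg adjustment). CXCL6, PF4 and PF4V1 were under the filter and overlapped, and PPBP was listed at 0 throughout. MTHFD2L and the genes named after it here were picked for mention after their values were seen.

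**Figure D2:**
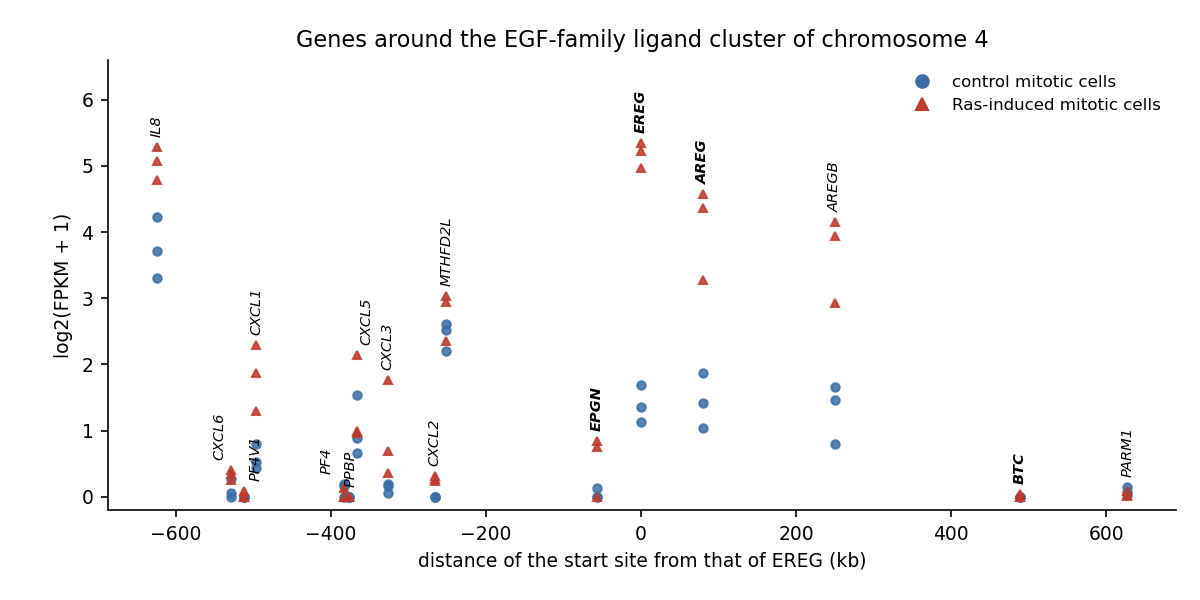
Levels of the listed genes within 700 kb of the EREG start on chromosome 4, as log2(FPKM + 1) in each library, against the distance of each start site from that of EREG in kb. Names of family genes are in bold. EREG, AREG and AREGB stand above their controls in each Ras-induced library, while EPGN and BTC are at or near 0.

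NRG1 (neuregulin 1, ENSG00000157168, chromosome 8 from 31496738 to 32713184) is a ligand of ERBB3 and ERBB4. It measured 2.48, 3.12 and 2.42 FPKM in control and 5.83, 5.70 and 9.01 FPKM in Ras-induced libraries. Each Ras-induced library exceeded each control library, and Ras-induced library 3 was the highest. NRG1 had a ratio of means of 2.57 and a log2 fold change of 1.08 (SE 0.19, adjusted p = 0.0144, limma with Benjamini-Hochberg adjustment, rank 455). The call was lost when control library 1 (adjusted p = 0.0643, limma with Benjamini-Hochberg adjustment) or control library 2 (0.0519) was left out, where the log2 fold changes were 1.04 and 1.16.

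HBEGF (heparin-binding EGF, ENSG00000113070, chromosome 5 from 139712428 to 139726188), a ligand of EGFR and ERBB4, measured 8.28, 9.25 and 10.8 FPKM in control and 8.03, 9.05 and 9.96 FPKM in Ras-induced libraries. The groups overlapped almost entirely. Its log2 fold change was -0.06 (95% interval -0.37 to 0.25, adjusted p = 0.775, limma with Benjamini-Hochberg adjustment), so a rise beyond 0.25 on that scale lay outside the interval. TGFA, another EGFR ligand, was listed at 0, 0.0158 and 0.0129 FPKM in control and at 0.265, 0.139 and 0.0155 FPKM in Ras-induced libraries. It was above every control in the first 2 Ras-induced libraries only, and it was under the filter.

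**Figure D3:**
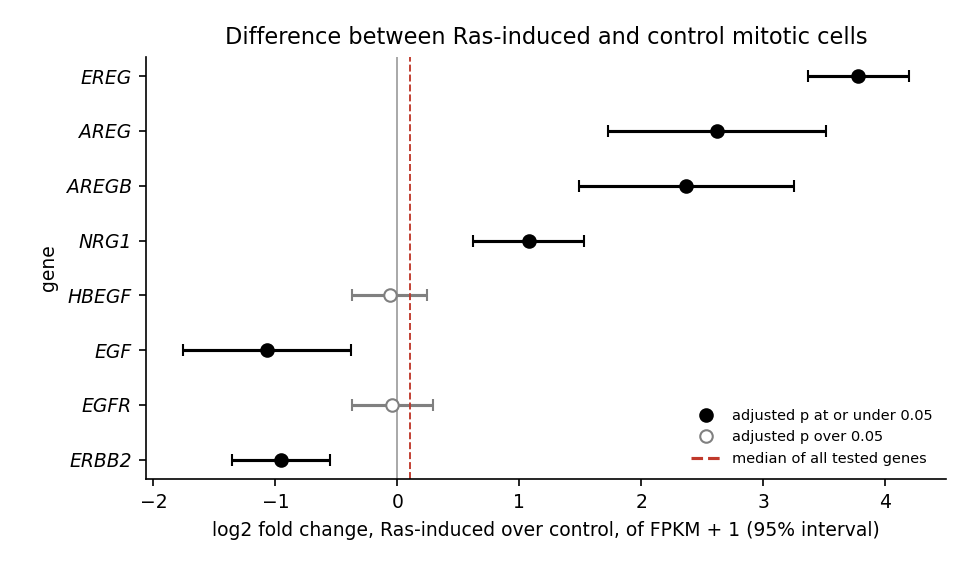
Log2 fold change of FPKM + 1, Ras-induced over control mitotic cells, with 95% intervals, for the 6 tested family genes, AREGB and EGF. Filled points have an adjusted p at or under 0.05, and the dashed line is the median of all tested genes, 0.10. EREG has the largest rise, the intervals of HBEGF and EGFR include 0, and EGF and ERBB2 lie under 0.

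Added over the 7 ligands, with AREG as its own entry, the level was 14.6, 15.7 and 16.6 FPKM in control and 74.0, 64.8 and 67.9 FPKM in Ras-induced libraries. The Ras-induced sums were all above the control sums, with a ratio of means of 4.41. HBEGF made up 56.7%, 58.9% and 65.4% of the sum in control libraries and 10.9%, 14.0% and 14.7% in Ras-induced libraries. EREG made up 8.08%, 9.94% and 13.5% of it in control and 49.1%, 46.6% and 58.3% in Ras-induced libraries. The share of AREG was 6.41% to 18.2% in control and 12.8% to 30.8% in Ras-induced libraries and overlapped. That of NRG1 was 14.6% to 19.8% in control and 7.89% to 13.3% in Ras-induced libraries, so its share was lower although its level was higher. With AREGB added to the sum, a step chosen after seeing the data, HBEGF made up 49.4%, 53.0% and 62.6% in control and 8.84%, 11.4% and 13.4% in Ras-induced libraries, and EREG 7.04%, 8.95% and 12.9% in control and 40.0%, 38.1% and 53.1% in Ras-induced libraries. The pair of AREG and AREGB made up 28.7%, 19.6% and 10.4% in control and 43.6%, 43.0% and 20.5% in Ras-induced libraries. HBEGF was thus the most abundant in every control library with either sum. In Ras-induced libraries 1 and 2 the pair exceeded EREG, and in library 3 EREG exceeded the pair, whereas AREG alone stayed under EREG in all 3. The share of NRG1 was 14.0% to 17.8% in control and 6.42% to 12.1% in Ras-induced libraries with AREGB added.

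**Figure D4:**
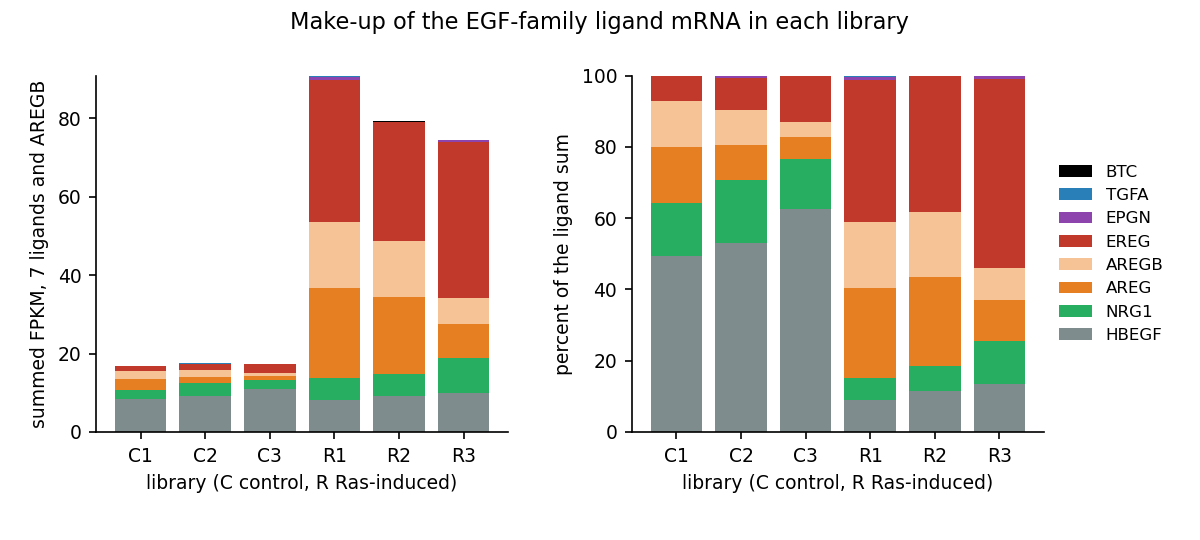
Summed FPKM of the 7 ligands and AREGB in each library (left) and the percent of that sum from each gene (right), with control libraries C1 to C3 and Ras-induced libraries R1 to R3. HBEGF is the largest segment in the control libraries, 55.0% of the sum on average. AREG and AREGB, whose reads can hardly be told apart, together exceed EREG in R1 and R2 but not in R3.

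Of the receptors, EGFR (ENSG00000146648, chromosome 7 from 55086710 to 55279321), which binds most ligands of the family, measured 46.2, 41.1 and 59.1 FPKM in control and 49.8, 46.3 and 44.6 FPKM in Ras-induced libraries. The Ras-induced values lay within the range of the controls. The log2 fold change was -0.04 (95% interval -0.37 to 0.29, adjusted p = 0.867, limma with Benjamini-Hochberg adjustment). Without control library 3, the highest, it was 0.10 (adjusted p = 0.451, limma with Benjamini-Hochberg adjustment).

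ERBB2 (ENSG00000141736, chromosome 17 from 37844167 to 37886679), a receptor with no known ligand of its own that pairs with the others, measured 14.2, 17.7 and 22.1 FPKM in control and 9.80, 8.17 and 8.05 FPKM in Ras-induced libraries. Every Ras-induced library was lower than every control library, and the controls varied more. ERBB2 fell 2.07-fold by the ratio of means, with a log2 fold change of -0.95 (SE 0.17, adjusted p = 0.0142, limma with Benjamini-Hochberg adjustment). That call was lost without control library 2 (adjusted p = 0.0692, limma with Benjamini-Hochberg adjustment), Ras-induced library 2 (0.0557) or Ras-induced library 3 (0.0677), at log2 fold changes of -0.96, -0.92 and -0.91. The EGFR to ERBB2 ratio was 3.26, 2.33 and 2.68 in control and 5.08, 5.67 and 5.54 in Ras-induced libraries, and it was higher in each Ras-induced library than in any control library.

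ERBB3 (ENSG00000065361, chromosome 12 from 56470583 to 56497289), a neuregulin receptor with a weak kinase, measured 0.258, 0.207 and 0.0456 FPKM in control and 0.212, 0.694 and 0.0748 FPKM in Ras-induced libraries. It was low in both groups, which overlapped, and it was under the filter. ERBB4, the other neuregulin receptor, was listed at 0.152, 0.0323 and 0 FPKM in control libraries and at 0 in the 3 Ras-induced libraries. Messages for both receptors that bind NRG1 were thus under 1 FPKM in all 6 libraries.

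Ordered by mean FPKM in control mitotic cells, EGFR (48.8) came before ERBB2 (18.0), HBEGF (9.46), NRG1 (2.67), AREG (1.80) and EREG (1.66), followed by ERBB3, EPGN, TGFA and BTC. The first 3 were separated from the next gene by their ranges over the libraries, whereas NRG1, AREG and EREG were not separated from their neighbours among these 3, nor were the last 4. In Ras-induced mitotic cells the order of mean FPKM was EGFR (46.9), EREG (35.3), AREG (17.0), HBEGF (9.01), ERBB2 (8.68) and NRG1 (6.85), followed by EPGN, ERBB3, TGFA and BTC. EGFR and EREG were separated from the genes after them, but AREG, HBEGF, ERBB2 and NRG1 were not separated from their neighbours among these 4, nor were the last 4. With the AREG entry alone EREG moved from place 6 to place 2. Summed with AREGB, a step chosen after seeing the data, the AREG pair averaged 3.35 FPKM in control (1.80 to 4.82), before NRG1 but not separated from it. The pair averaged 29.6 FPKM in Ras-induced cells (15.3 to 39.6), where EREG (30.2 to 39.6) was not separated from it.

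The remaining genes of the family, EGF, NRG2, NRG3, NRG4 and ERBB4, were taken as a list of 5, of which only EGF was tested. EGF measured 1.56, 0.964 and 2.86 FPKM in control and 0.285, 0.188 and 0.367 FPKM in Ras-induced libraries. The groups did not overlap, and the controls were 6.41 times higher by the ratio of means. EGF fell by 1.07 on the log2 scale (adjusted p = 0.0495, limma with Benjamini-Hochberg adjustment), a call lost in 7 of 13 alternatives, with an adjusted p of up to 0.103, among them those without control library 1 or without any of the Ras-induced libraries. With a pseudocount of 0.1 its log2 fold change was -2.22. It had passed the filter through the control group. NRG4 measured 0.286 to 0.515 FPKM over the 6 libraries, NRG2 reached 0.227 FPKM, and NRG3 was listed at 0 throughout.

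Genes that act with the ligands and receptors were taken from fixed lists. Of 8 genes for the release of ligands, all tested, 1 rose and 1 fell (25%, against 16.7% of all tested genes), and the median log2 fold change was -0.18, against 0.10 for all tested genes. RHBDF1, which encodes iRhom1, a partner that helps the sheddase ADAM17 mature, measured 6.11, 6.55 and 5.87 FPKM in control and 17.9, 9.52 and 12.3 FPKM in Ras-induced libraries. Its log2 fold change was 0.95 (adjusted p = 0.0283, limma with Benjamini-Hochberg adjustment), and the call was lost in 6 of 13 alternatives, those with no filter and with any library but Ras-induced library 2 left out, with an adjusted p of up to 0.0972. ADAM12, a metalloprotease that can cut HBEGF, measured 6.48, 7.34 and 8.14 FPKM in control and 1.09, 1.70 and 1.29 FPKM in Ras-induced libraries. It fell in every Ras-induced library relative to every control, with a log2 fold change of -1.82 (adjusted p = 0.00212, limma with Benjamini-Hochberg adjustment). ADAM17 itself, the main sheddase of EREG and AREG, measured 9.70 to 11.9 FPKM in control and 8.84 to 11.1 FPKM in Ras-induced libraries, which overlapped (adjusted p = 0.541, limma with Benjamini-Hochberg adjustment). ADAM9 was the most abundant gene of this list. ADAM17 and ADAM9 were picked for mention after their values were seen.

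Of 21 genes for adaptors and effectors that bind the active receptors, 20 were tested. PIK3CB rose and STAT5A and STAT3 fell, with log2 fold changes of 0.56, -0.53 and -0.32, and the other 17 did not pass the test, so 15% were altered, against 16.7% of all tested genes. The calls of STAT5A and STAT3 were lost in 9 and 11 of 13 alternatives, each single library left out among them, with adjusted p-values of up to 0.124 and 0.136. That of PIK3CB was lost without Ras-induced library 3 (0.0543). The median of the list was 0.09, against 0.10 for all tested genes. The fitted value of SHC1, 2.54 (adjusted p = 0.368, limma with Benjamini-Hochberg adjustment), rests on the control library in which it is listed at 0.

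Receptor restraint and trafficking was covered by 30 genes, 27 of them tested. Here 4 rose and 2 fell (22.2%, against 16.7% of all tested genes; 2 and 3 after quantile normalization and 3 and 3 after upper-quartile scaling), and the median log2 fold change was 0.16, against 0.10 for all tested genes. SH3KBP1, an adaptor that helps take EGFR into the cell, measured 71.8, 67.1 and 55.2 FPKM in control and 131, 123 and 117 FPKM in Ras-induced libraries, with no overlap and a log2 fold change of 0.93 (adjusted p = 0.00474, limma with Benjamini-Hochberg adjustment). RIN1 and RAB7A, which act in endosomal traffic, rose by 0.77 and 0.39 on the log2 scale. The phosphatase gene PTPN1, named because it completes the count, rose by 0.32 (adjusted p = 0.0469, limma with Benjamini-Hochberg adjustment). PTPRJ, a receptor phosphatase that acts on EGFR, and RASA1, which lowers Ras activity, had log2 fold changes of -0.84 and -0.41. Of these calls, that of SH3KBP1 held in all 13 alternatives, while those of RIN1, RAB7A, PTPRJ and RASA1 were lost in 6, 5, 4 and 5 of them, nearly all with 1 library left out, at adjusted p-values of up to 0.0904, 0.0819, 0.0778 and 0.0913. Control libraries 1 and 2 and Ras-induced library 3 each ended all 4 of these calls when left out. That of PTPN1 was lost in 11 of 13, at an adjusted p of up to 0.124. The count of 6 was 2 without control library 1 or Ras-induced library 1 or 2, and 1 without control library 2 or Ras-induced library 3.

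Output of the ERK pathway was followed in 10 genes, all tested, of which 5 rose and none fell (50%, against 16.7% of all tested genes), with a median of 0.93 against 0.10 for all tested genes. DUSP6, a phosphatase that switches ERK off, measured 3.31, 1.92 and 2.23 FPKM in control and 39.8, 21.2 and 37.2 FPKM in Ras-induced libraries. Its groups were far apart, with a log2 fold change of 3.24 (adjusted p = 0.00198, limma with Benjamini-Hochberg adjustment). DUSP4 and SPRY2, further restraints on this pathway, had log2 fold changes of 1.65 and 1.20, and all 3 calls held in the 13 alternatives. The other 2 calls, those of PHLDA1 and SPRY4, named because they complete the count, were lost in 1 and 11 of 13, at adjusted p-values of up to 0.0502 and 0.153. The other 5 genes of the list, ETV4, ETV5, CCND1, EPHA2 and EPHA4, were not altered, at log2 fold changes of -0.07 (CCND1) to 0.99 (EPHA4). The count of 5 rises was 3 without Ras-induced library 1. DUSP4 averaged 0.225 FPKM in control and 2.86 FPKM in Ras-induced cells, so it had passed the filter through the Ras-induced group, and with a pseudocount of 0.1 its value was 3.21. HRAS, whose reads can come from the construct, measured 1174, 1176 and 1140.3 FPKM in control and 1439, 1847 and 1473 FPKM in Ras-induced libraries. It was thus high in uninduced cells too, and its log2 fold change of 0.44 (adjusted p = 0.0431, limma with Benjamini-Hochberg adjustment) lost its call in 11 of 13 alternatives, with an adjusted p of up to 0.166. The ER fusion is known to be switched on by tamoxifen at the protein level.

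**Figure D5:**
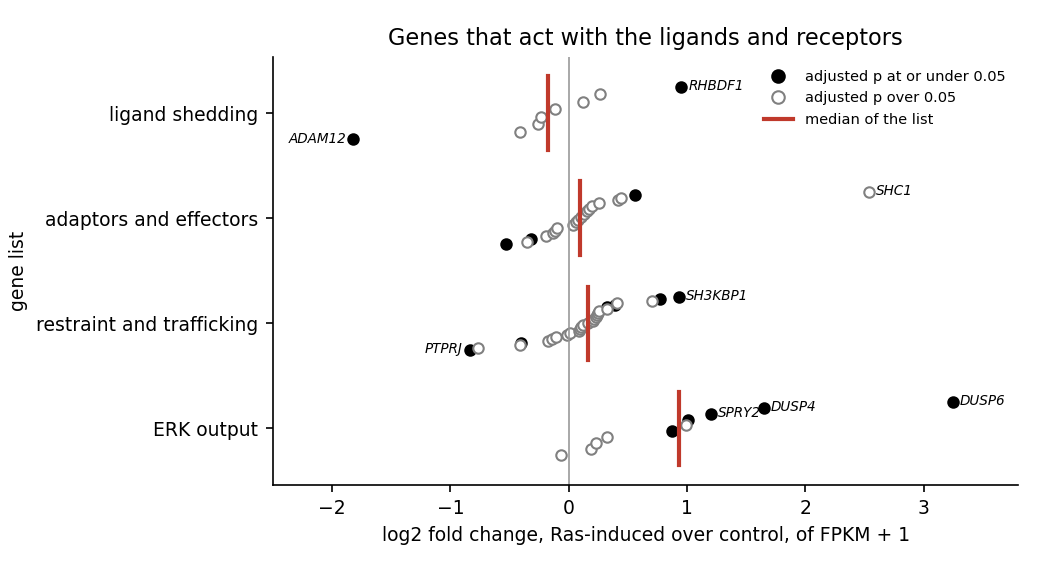
Log2 fold change of FPKM + 1, Ras-induced over control mitotic cells, for the tested genes of the 4 lists on release of ligands (8 genes), adaptors and effectors (20), restraint and trafficking (27) and ERK output (10). Each point is a gene, filled where the adjusted p is at or under 0.05, and red lines are list medians. The medians are -0.18, 0.09, 0.16 and 0.93.

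The profile of EREG was set beside those of all other tested genes by the root mean square difference of log2(FPKM + 1), centred on each gene, over the 6 libraries. The nearest were PRSS3 (0.261), TAGLN3 (0.358), COL10A1 (0.400), SERPINB2 (0.428) and GABRA2 (0.430). PRSS3 measured 2.19, 3.57 and 2.82 FPKM in control and 38.3, 49.5 and 52.2 FPKM in Ras-induced libraries, a step close to that of EREG from a similar level. For EGFR the nearest profiles, by the same measure over 6 libraries, were those of CEP250 (0.0309), TMEM30A (0.0450) and GLB1 (0.0493), all of which were highest in control library 3, as EGFR was. Distances this small are easily reached by genes that hardly vary.

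Markers of fibroblasts were measured in both groups, with LUM (mean 11.9 FPKM) and DCN (24.7 FPKM) the lowest in Ras-induced cells. All 12 were tested, VIM was the most abundant, and their sum was 6228, 7232 and 7483 FPKM in control and 4817, 6118 and 4615 FPKM in Ras-induced libraries. Of the 12 none rose and 4 fell (DCN, LUM, COL1A2 and THY1; 33.3%, against 16.7% of all tested genes), and the median log2 fold change was -0.65, against 0.10 for all tested genes. The call of COL1A2 was lost without control library 2 (adjusted p = 0.0576, limma with Benjamini-Hochberg adjustment) or Ras-induced library 1 (0.0518). Of 14 epithelial markers 8 were tested and 0 were altered (limma with Benjamini-Hochberg adjustment), while 2 had an unadjusted p under 0.05. KRT18, the most abundant and 1 of these 2, measured 51.8, 45.1 and 47.6 FPKM in control and 56.7, 58.7 and 58.4 FPKM in Ras-induced libraries, with no overlap and a log2 fold change of 0.26 (unadjusted p = 0.0127, adjusted p = 0.0638, limma with Benjamini-Hochberg adjustment). KRT7, the other, measured 8.40, 11.2 and 2.34 FPKM in control and 2.49, 2.30 and 1.33 FPKM in Ras-induced libraries, with overlap and a log2 fold change of -1.28 (unadjusted p = 0.0331, adjusted p = 0.116, limma with Benjamini-Hochberg adjustment). The part of either in the ligand differences was not tested. The sum of the list was 97.3, 110 and 90.7 FPKM in control and 99.2, 97.5 and 103 FPKM in Ras-induced libraries, and SFTPC was listed at 0 throughout. KRT5 (7.77 to 18.7 FPKM over the 6 libraries), KRT8 (8.87 to 13.3), KRT14 (7.28 to 13.2) and CLDN4 (2.26 to 7.32) were measured in both groups, which overlapped. These 4 were named after their values were seen. Without control library 3, with a mean of 0.1 FPKM as the filter or with the column numbers as a replicate block, 1 epithelial marker was altered, lower. EPCAM, a surface marker of epithelial cells, measured 0.880 to 1.80 FPKM in control and 0.167 to 0.424 FPKM in Ras-induced libraries. Its groups did not overlap, and the controls were 4.32 times higher by the ratio of means. EPCAM was under the filter and so not among the tested markers. It was named after its values were seen. Of 8 endothelial markers 2 were tested and 1 (TEK, the most abundant) was altered, lower, with PECAM1 and EMCN listed at 0 and a sum of 16.0 to 21.3 FPKM in control and 6.04 to 6.79 FPKM in Ras-induced libraries. Of 10 immune markers only CD68, the most abundant, was tested, and it was not altered (log2 fold change 0.25, adjusted p = 0.145, limma with Benjamini-Hochberg adjustment). CD3E, TYROBP and AIF1 were listed at 0, and the sum was 26.3 to 31.4 FPKM in control and 31.2 to 36.6 FPKM in Ras-induced libraries.

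The 12 mitotic markers, all tested, summed to 2197, 2205 and 2340 FPKM in control and 1746, 1904 and 1877 FPKM in Ras-induced libraries, with CCNB1 the most abundant. None rose and 7 fell (58.3%, against 16.7% of all tested genes), with a median log2 fold change of -0.28, against 0.10 for all tested genes, and the largest falls in KIF20A (-0.81), HMMR (-0.60) and CENPE (-0.56). The count of 7 was 1 without control library 1 or 2 or Ras-induced library 1 or 3, 3 without Ras-induced library 2, and 2 with no filter or no trend. The call of KIF20A held in all 13 alternatives, while those of HMMR and CENPE were lost in 8 and 7, at adjusted p-values of up to 0.124 and 0.112. The sums did not overlap between the groups. They moved with the ligand and ERBB2 differences, as did the fibroblast marker sum and the endothelial marker sum. The endothelial sum was mostly TEK (mean 15.3 FPKM in control and 4.93 FPKM in Ras-induced cells). The part of these sums in the ligand and ERBB2 differences was not tested.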

How the data were processed

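RNA-seq values were analysed for 3 control and 3 Ras-induced mitotic libraries. The authors deposited FPKM values per gene and library. The submitters' processing notes name Trim Galore 0.3.0, TopHat2, Cufflinks and Cuffdiff with build hg19. Columns give the group and a number but not the sample, so libraries served as replicates of their group. By a figure legend of the paper, independent repeats were made, but the labels do not tie libraries to cultures, so p-values measure the spread between these libraries. Of 63129 genes listed, 120 with more than 6 values were left out. A stray header line was dropped, and 18 columns without a name were not used. The deposited Cuffdiff comparison holds group FPKM, fold changes, test statistics, p-values and q-values, and was not used. The methods in the paper give the inducer as 4OHT at a dose that differs from the labels.

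FPKM is not a count, so log2(FPKM + 1) was tested with limma 3.58.1 in R 4.3.3 (lmFit, eBayes with a trend, two-sided), for genes whose mean reached 1 FPKM, with Benjamini-Hochberg adjustment over all of them. A repeated symbol was represented by its highest mean. The procedure was tested on simulated data, but no result of that test is given or relied on here. Members and gene lists were chosen with earlier results of these data known. Genes named by rule were all 10 family genes, AREGB, the remaining family genes, HRAS, the 3 largest rises and falls among altered genes of each list, genes that complete a count, altered neighbours of the cluster, the most abundant gene of each marker list, marker genes listed at 0 throughout, and the nearest profiles of EREG (5) and EGFR (3). SHC1, MTHFD2L, CXCL2, CXCL3, CXCL5, CXCL6, PF4, PF4V1 and PPBP fit no rule and were named after their values were seen. The same holds for ADAM17, ADAM9, EPCAM, KRT5, KRT8, KRT14 and CLDN4. Positions are from GENCODE lifted to GRCh37, the build hg19, and promoter windows from RefSeq (GRCh38.p14). Transcripts were aligned with Biopython 1.88. Python 3.11.15 with pandas 2.3.3, numpy 2.4.6 and matplotlib 3.10.9 made tables and figures. Without read counts only relative depth is known. Alternatives were a pseudocount of 0.1, no filter or a mean of 0.1 FPKM, quantile and upper-quartile scaling, no trend, a replicate block, each library left out, a log2 fold change of at least 1 in size, and AREG and AREGB summed, also in the ligand sums, shares and level order.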

Additional observations from a re-analysis of the deposited data

How the results depend on the processing

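The rises of EREG and AREG kept their direction and their call in all 13 and 14 alternatives, with log2 fold changes of 3.65 to 4.37 and 2.38 to 3.15 and adjusted p-values of up to 0.00874 and 0.0486 (limma with Benjamini-Hochberg adjustment). The sum of AREG and AREGB was added after seeing the data. With it the mean ligand sum moved from 15.6 to 17.2 FPKM in control and from 68.9 to 81.5 FPKM in Ras-induced cells, the HBEGF share of controls from 60.3% to 55.0% and the EREG share of Ras-induced cells from 51.3% to 43.7%. NRG1 (0.89 to 1.30, adjusted p 0.00897 to 0.0643 from limma) lost its call in 2 and ERBB2 (-1.11 to -0.80, adjusted p 0.00966 to 0.0692 from limma) in 3 of 13, all with a library left out, which leaves fewer samples. With each library left out in turn, log2 fold changes ran from 0.89 to 1.18 for NRG1, -1.11 to -0.80 for ERBB2, -0.14 to 0.033 for HBEGF and -0.15 to 0.10 for EGFR. The sign of HBEGF turned without control library 3 (0.033) or Ras-induced library 1 (0.012), and that of EGFR without control library 3 (0.10), with no call in any alternative. Altered family genes numbered 2 to 4 with a library left out (2 without control library 2) and 4 otherwise. Of all tested genes 2336 were altered, 1518 with no filter, 548 with a log2 fold change of at least 1 in size also required, and 860 to 1872 with a library left out. Of the 73 tested genes of the pathway and cluster lists and the list of remaining family genes (EGF), 20 were altered, 12 with no filter and 7 to 14 with a library left out. The split of all altered genes was 1543 higher and 793 lower, but 1044 and 1109 after quantile normalization and 921 and 1101 after upper-quartile scaling, which moved the median log2 fold change from 0.10 to 0.01 and 0.0047. All 4 altered family genes kept their direction and call under both scalings. The calls of EGF, HRAS and AREGB were lost in 7, 11 and 1 of 13 alternatives. Whether the numbers in the column names pair the libraries could not be settled from so few libraries. Deviations from the group mean correlated at -0.0027, 0.0433 and 0.0481 for libraries with equal numbers and at -0.0679 to 0.0311 for the others. With these numbers as a replicate block 2310 genes were altered, as were the same 4 family genes, 19 list genes and 1 epithelial marker, lower (0 without the block). Not every library correlated best with its own number. Without read counts, a level near 0 cannot be given a counting error, which limits EPGN, TGFA, BTC and ERBB3.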
